A study of Homo sapiens with 9 samples.

Results

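MEK1 (gene MAP2K1) is the kinase that phosphorylates and activates ERK1 and ERK2 below RAS and RAF. K57N, a substitution found in cancers, and F53S, one found in RASopathies, were compared at the level of the transcriptome in HEK293 cells, a line derived from human embryonic kidney. The comparison took the 3 arrays of cells stably expressing HA-tagged MEK1 K57N and the 3 arrays of cells expressing F53S, 6 of the 9 arrays of the series. The other 3 arrays held cells expressing WT MEK1 and served as the reference level and for the estimate of spread. All cells kept their own MEK1 and were harvested without added stimulus. Each construct was represented by 1 stable line made by transfection and puromycin selection, and the methods do not say whether clones were picked. The p-values therefore measure the spread between experiments with 1 line each, and the mutation and other differences between the lines cannot be told apart.

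ERK phosphorylates transcription factors of the ETS and AP-1 families and drives immediate early genes within minutes, among them EGR1, FOS and JUNB. It also turns on its own brakes: the DUSP phosphatases, which dephosphorylate ERK, and the Sprouty proteins, which act on the cascade above MEK. Sustained ERK activity is known for the induction of matrix metalloproteinases, plasminogen activation and secreted growth factors. The question posed by the comparison was which of these outputs differ between the mutants and which genes are at nearly the same level in both.

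Signals are given on the log2 scale relative to the 75th percentile of each array, so that 1 unit is a 2-fold difference and 0 is the signal at that percentile. Replicate 1 of every line was hybridized on slide 1, and replicates 2 and 3 on slide 2. The 75th percentile lay between 245 and 376 units of processed signal on slide 1 and between 695 and 821 on slide 2. Slide was a term of the fit for this reason. Across genes, replicates 1 and 2 differed with an SD of 0.901 in F53S and 0.651 in K57N cells, and replicates 2 and 3 with an SD of 0.302 and 0.327. The median standard error of a K57N minus F53S difference was 0.135. Of the 14 marker genes of HEK293 cells, 10 were tested, including VIM, KRT8, KRT18, PAX2 and WT1, while the other 4, PAX8, NEFM and INA among them, were not above background on all 3 arrays of any line and were not tested. None of the 10 was called different between the mutants. Of the markers of other cell types, 2 of 10 for fibroblasts and 2 of 7 for endothelium were tested, with a summed signal on any array of at most 1.39 and 0.532 times the 75th percentile.

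MAP2K1 itself differed by less than 2-fold between the mutant lines. Its single probe (chr15:66783224-66783283 on hg19) gave log2 signals of 2.92, 2.81 and 2.82 in K57N cells and of 2.5, 2.39 and 2.46 in F53S cells. In WT cells the values were 2.36, 2.34 and 2.42. The 3 K57N arrays were the highest, with a difference from F53S of 0.40 (standard error 0.08, adjusted p = 0.0211, limma), a fold of 1.32. This adjusted p was not below 0.05 when any 1 F53S array, K57N replicate 2 or K57N replicate 3 was left out, with a highest value of 0.0815. Whether the probe lies in the part of the transcript that the expression plasmid carried could not be told from the tables used, so the value checks neither the amount of the transgene nor the labels.

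K57N cells had 362 genes called higher than F53S cells, which is 1.88% of the 19217 genes tested, and 211 called lower, which is 1.1%. Genes were called where the difference exceeded 2-fold with an adjusted p under 0.05. For 338 of the 362 genes all 3 K57N arrays lay above all 3 F53S arrays, and for 190 of the 211 they lay below. Over all genes tested this was so for 8.31% above and 10.4% below. All 361 of the higher genes with a value on slide 1 were higher within slide 1, and all 362 were higher within slide 2. All 211 lower genes were lower within each slide. The genes were called from these same arrays, so neither the order of the arrays nor the shared sign is separate support for the calls. The differences within slide 2 had a median of 1.55 for the higher and −1.09 for the lower genes, against 1.75 and −1.51 within slide 1. With slide 2 alone, 342 genes were called higher and 131 lower. With normexp background correction, the numbers were 189 and 51, so that the share of higher genes among the called genes rose from 63.2% to 78.8%. Leaving out F53S replicate 1 or K57N replicate 1 lowered the number of lower genes to 139 or 140. The plot of all genes shows that the higher genes reached larger differences than the lower ones.

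**Figure D1:**
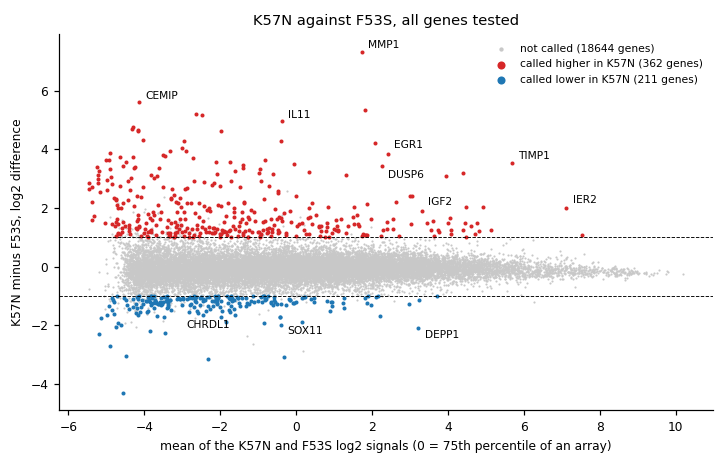
Each point is 1 of the 19217 genes tested, with the mean of its K57N and F53S log2 signals on the x axis and the K57N minus F53S log2 difference from the fit on the y axis. Red marks the 362 genes called higher in K57N cells, blue the 211 called lower, and dashed lines mark a 2-fold difference. MMP1 lies at 7.34, and most genes lie between the dashed lines.

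Alternatives were computed per gene for 83 called genes, those chosen by the rule for named genes given below. The filter for all 9 arrays could be run for 51 of them. Of the 83, 37 lost their call without the slide term and 23 with normexp correction, and 32 had a difference smaller by over 1.5 times with normexp. The genes described here that lost their call without the slide term included PHLDA2, DUSP1, C11orf96, CD68, DEPP1, WFDC21P, MAP2, CGNL1, HS3ST1, SOX3, ERBB4, BMF, COL5A1, PIK3R3, INPP5D, VEGFB, IFIT1, TM7SF2, WNT7B and LINC00520. Those that lost it with normexp included SOX12, CAPN6, HS3ST1, SGPP2, TAGLN, ERBB4, PIK3R3, VEGFB, WNT5A, IFIT1, WNT7B and SMTNL2. On slide 2 alone, the calls of COL5A1, TAGLN, PIK3R3, INPP5D, VEGFB, BMF, TM7SF2, IFIT1, WNT7B, PPP1R15A, CEBPB, TRIB3, SLC29A4, SMTNL2, ANKRD65 and LINC00520 were lost. Where normexp made a difference of these 83 genes smaller by over 1.5 times and its size is described here, the normexp value is given with the gene. For other called genes described here, the alternatives were not computed per gene. SPRY2, FOS, PLAUR, TGFB1, IGF2, MAGEB2 and MMP3 are among them, so how their sizes change with normexp was not tested.

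Some of the transcripts known as ERK feedback and output were higher in K57N cells. Of 24 tested genes on a list of ERK feedback and output genes, 11 were called higher and 0 lower, that is 45.8% against 1.88% and 1.1% of all genes, and the median difference was 1.17 against −0.07 over all genes. Genes can pass the filter on dim probes through the K57N arrays alone, so counts for the main lists are also given with the filter for all 9 arrays, here 8 higher of 17. With that filter 2.04% of all 17099 genes were called, against 2.98% without it. DUSP6, a phosphatase that dephosphorylates ERK in the cytoplasm, gave 4.06, 4.01 and 3.86 in K57N, 0.51, 0.49 and 0.65 in F53S and −3.33, −1.70 and −2.01 in WT cells. The 3 lines did not overlap, and the K57N minus F53S difference was 3.43 (standard error 0.32, adjusted p = 0.000919, limma). EGR1, a zinc finger factor encoded by an immediate early gene, gave 5.23, 3.89 and 3.89 in K57N, 0.67, 0.44 and 0.41 in F53S and −1.09, −0.68 and −1.09 in WT cells. Its difference between the mutants was 3.83 (standard error 0.29, adjusted p = 0.000363), 4.56 within slide 1 and 3.47 within slide 2. DUSP5, the nuclear ERK phosphatase, was higher by 3.17 and DUSP4 by 1.46. PHLDA2, a pleckstrin homology domain protein that can compete with AKT for membrane lipids, gave 6.11, 5.09 and 5.25 in K57N and 4.32, 3.0 and 3.07 in F53S cells, a difference of 2.02 (standard error 0.11, adjusted p = 7.32e-05). Its relative PHLDA1 was higher by 1.86 (adjusted p = 0.00466).

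Some of these genes also differed between F53S and WT cells by about 2-fold or more, without passing the adjusted threshold. SPRY2, a Sprouty inhibitor, gave 1.96, 1.91 and 1.91 in F53S cells, between 3.44, 3.04 and 3.12 in K57N and a mean of 0.94 ± 0.19 (SD, n = 3) in WT cells. Its F53S minus WT difference was 0.99 and its K57N minus F53S difference 1.27 (adjusted p = 0.00183). SPRY4 had differences of 2.77 and 1.69 for these steps, although its second probe, which gave −0.33 for K57N minus F53S, was not called. ETV4, an ETS factor of the PEA3 group, differed by 3.61 between F53S and WT and by 1.41 between K57N and F53S cells, the latter with an interval from 0.48 to 2.34 and an adjusted p of 0.0587. ETV5 had an interval from −0.42 to 2.55 between the mutants, so neither a difference of 2-fold nor none could be told for it. No F53S against WT difference in any gene passed the adjusted threshold and 2-fold together in limma (0 genes, smallest adjusted p = 0.0824), and 49 genes were higher and 9 lower at an unadjusted p. The steps share the F53S arrays, so they are given side by side only.

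Other targets hardly differed. CCND1, which encodes cyclin D1, had a K57N minus F53S difference of 0.31 with a 95% confidence interval from 0.08 to 0.53. HMGA2, a chromatin protein, had an interval from −0.33 to 0.15. A gene is said to differ little here where every one of the 9 arrays had it well above background and its interval lay within 2-fold in either direction. In all, 6 of the 17 ERK feedback and output genes measured on all 9 arrays differed little, a share of 35.3%, against 89.4% of the 17075 genes measured on all 9 arrays.

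Immediate early transcription factors had a share of called genes close to that of the ERK output list. Of 25 tested members, 12 were called higher and 0 lower (48% against 2.98% of all genes), with a median difference of 0.92. Among the 23 above background on all 9 arrays, 10 were higher. EGR2 gave 0.56, −0.25 and −0.21 in K57N and −3.19, −3.83 and −3.59 in F53S cells, a difference of 3.57 (standard error 0.15, adjusted p = 2.71e-05, limma). JUNB, an AP-1 subunit, gave 2.51, 1.27 and 1.27 in K57N and −1.09, −2.20 and −2.17 in F53S cells, a difference of 3.5 (adjusted p = 3.34e-05). ARC, an immediate early gene best known from neurons, was higher by 3.24. The AP-1 subunits FOSB, FOS and FOSL1 were higher by 2.93, 2.30 and 1.65, and IER2, the brightest member, by 2.0. EGR3 did not exceed background on the F53S arrays and was at least 7.73-fold higher in K57N cells (adjusted p = 4.67e-05), with a fitted difference of 1.48 under normexp. Such lower bounds set the K57N mean against, on each F53S array, the higher of the probe's own value and the lowest signal that exceeded background. The group was not uniform. JUN, the AP-1 partner of FOS, had a difference of −0.21 with an interval from −0.42 to −0.01, and KLF10 one of 0.47 with an interval from 0.25 to 0.69. BTG2, an antiproliferative early gene, had a difference of −0.85 (adjusted p = 0.0233), which is less than 2-fold.

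No gene of the cascade between RAS and ERK was called. Of 27 tested, 0 were called by limma, against 2.98% of all genes, a share that gives less than 1 gene in a list of this length. All 26 that were measured on all 9 arrays differed little, MAP2K1 included, against 89.4% of all genes. The differences in this list ranged from −0.67 to 0.84. At the upper end was ELK3, an ETS factor, with an adjusted p of 0.00489 but less than 2-fold. Of 13 tested phosphatases of MAP kinases, 5 were called higher (38.5% against 2.98% of all genes), and 3 of 11 with the filter for all 9 arrays, where the median was −0.05. The 5 were DUSP6, DUSP5, DUSP1, DUSP4 and DUSP2, while the catalytic subunit PPP2CA and PPM1D had intervals from 0.13 to 0.49 and from −0.42 to 0.00.

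Secreted proteases and their inhibitors held MMP1, the gene with the largest difference of all genes tested. Of 37 tested genes on this list, 14 were called higher and 0 lower (37.8% against 2.98% of all genes), with a median difference of 0.33. With the filter for all 9 arrays, 7 of 28 were higher and the median was 0.22. MMP1, an interstitial collagenase, gave 5.54, 5.31 and 5.33 in K57N, −1.94, −1.92 and −1.97 in F53S and −5.66, −3.95 and −4.09 in WT cells. The difference between the mutants was 7.34 (standard error 0.36, adjusted p = 4.77e-05, limma), a fold of 162, and it was 7.49 within slide 1 and 7.26 within slide 2. Neighbors of MMP1 on chromosome 11 were also higher. MMP10, a stromelysin, was higher by 4.64 (adjusted p = 4.33e-05), or 2.91 with normexp, and exceeded background on 2 of the 3 F53S arrays. The collagenase MMP13 was also called higher (adjusted p = 0.00958), but it exceeded background on 1 of the 3 F53S arrays, so no size is given for it. MMP3, another stromelysin, was below background on all F53S and WT arrays and was at least 3.56-fold higher in K57N cells (adjusted p = 0.00274). The probes of MMP10, MMP1, MMP3 and MMP13 lie between positions 102641405 and 102813832 of hg19. MMP11, on another chromosome, had a difference of −0.83 (adjusted p = 0.0536).

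Inhibitors of proteases were among the higher genes. TIMP1, a secreted inhibitor of metalloproteinases, gave 8.24, 7.01 and 7.09 in K57N, 4.67, 3.51 and 3.53 in F53S and 4.23, 3.35 and 3.31 in WT cells. The F53S arrays were slightly above the WT arrays on each slide, by 0.27 in the fit with an interval from 0.05 to 0.49. The K57N minus F53S difference was 3.55 (standard error 0.09, adjusted p = 2.85e-06). TFPI2, a Kunitz-type inhibitor of serine proteases, gave 4.37, 4.07 and 4.11 in K57N and −0.61, 0.12 and 0.37 in F53S cells, a difference of 4.22 (adjusted p = 7.56e-05). SERPINB2, which inhibits urokinase, was below background on all F53S and WT arrays and at least 7.70-fold higher in K57N cells, with a fitted difference of 1.64 under normexp. The urokinase receptor PLAUR was higher by 2.40 and urokinase itself, PLAU, by 1.47. In contrast, cathepsin L (CTSL) and ADAMTS1 differed little, with intervals from 0.03 to 0.43 and from 0.18 to 0.56.

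Growth factors and cytokines gave a mixed list, with 14 of 42 tested genes called higher and 2 lower (38.1% against 2.98% of all genes), and a median difference of 0.59. With the filter for all 9 arrays, 9 of 32 were higher and 2 lower, with a median of 0.44. IL11, a cytokine of the IL6 family, gave 3.16, 1.49 and 1.68 in K57N and −2.51, −3.05 and −2.95 in F53S cells, a difference of 4.95 (standard error 0.28, adjusted p = 7.96e-05, limma). AREG, an EGF receptor ligand that exceeded background on 2 of 3 F53S arrays, was higher by 3.94, or 1.89 with normexp, and GDF15, a stress-induced TGF-beta relative, by 3.09, the latter without K57N replicate 2, whose spots were marked as outliers. TGFB1 gave 3.12, 2.86 and 2.82 in K57N and 1.16, 0.56 and 0.68 in F53S cells, a difference of 2.14 (adjusted p = 3.13e-05). IGF2, an insulin-like growth factor, gave 4.35, 4.25 and 4.17 in K57N, 2.21, 2.44 and 2.41 in F53S and a mean of 2.34 ± 0.03 (SD, n = 3) in WT cells. The F53S and WT arrays of IGF2 overlapped, and only the K57N arrays stood apart, by 1.90 from F53S (adjusted p = 5.47e-05). The 2 members called lower were CHRDL1, an antagonist of BMP, at −1.64 and VEGFB at −1.01. The call of VEGFB was lost in 10 of 23 alternatives. Among these were the fits without F53S replicate 1 or K57N replicate 1, quantile normalization, median scaling and the deposited log2 values. INHBB and FGF13 differed little.

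Among receptors, 7 of 42 tested genes were called higher and 1 lower (19% against 2.98% of all genes). With the filter for all 9 arrays, 4 of 36 were higher and 1 lower, with a median of 0.04. IL13RA2, a decoy receptor that is also counted among the cancer-testis antigens, exceeded background on 2 of 3 F53S arrays and was higher by 4.29 (adjusted p = 0.00317), or 2.12 with normexp. IL7R was below background in F53S and WT cells and at least 4.73-fold higher in K57N cells, but under normexp its difference was 0.91 and the call was lost. IL4R gave 3.61, 3.24 and 3.27 in K57N and 1.87, 1.68 and 1.67 in F53S cells, a difference of 1.64 (adjusted p = 5.47e-05). EGFR was called higher by 1.19 from 1 of 3 probes, and the lowest of its probes gave 0.25. ERBB4 was lower, by −1.12, a call lost without K57N replicate 3.

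Surface proteins of the L6 family are tetraspan membrane proteins abundant on carcinoma cells. TM4SF1, its founding member, gave 0.65, −0.46 and −0.26 in K57N and −5.75, −4.86 and −5.08 in F53S cells, and was called higher (adjusted p = 0.00012, limma). It exceeded background on 1 of 3 F53S arrays, so no size is given for it. TM4SF19 was at least 3.88-fold higher in K57N cells by the processed signal, but with normexp its difference was 0.88, and the call was lost there and without the slide term (adjusted p = 0.178). EMP1 gave 3.89, 3.64 and 3.62 in K57N and 1.47, 1.53 and 1.56 in F53S cells, a difference of 2.19 (adjusted p = 4.26e-05). Of the 17 members of the list measured on all 9 arrays, 15 differed little, CD9 and PMP22 among them. This was a share of 88.2% against 89.4% of all genes, and 1 was called. Of all 20 tested members, 3 were called higher and 1 lower (20% against 2.98% of all genes). CAVIN2, a coat protein of caveolae, was lower by −2.21 (adjusted p = 0.00178), but the call was lost without the slide term (adjusted p = 0.275) and with normexp, where the difference was −0.91.

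Genes of epithelial-mesenchymal transition did not move as a block. Of 50 tested, 7 were called higher and 2 lower (18% against 2.98% of all genes), with a median difference of 0.28. With the filter for all 9 arrays, 4 of 44 were higher and 2 lower. SNAI1, a repressor of E-cadherin, gave 1.57, 1.09 and 1.17 in K57N and 0.21, −0.23 and −0.22 in F53S cells, a difference of 1.36 (adjusted p = 0.000115). CD44, the hyaluronan receptor, was higher by 1.24, called for 1 of its 2 probes. TGFBI and INHBA were higher by 1.86 and 2.15, INHBA by 1.11 with normexp. The mesenchymal genes COL5A1 and TAGLN were lower, by −1.27 and −1.10, and CDH2 and TWIST2 differed little. With normexp the difference of TAGLN was −0.60. The calls of COL5A1 and TAGLN were lost without K57N replicate 1, and that of COL5A1 also without F53S replicate 1.

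Cancer-testis antigens, germline genes that many tumors express, included several genes that were dim in F53S cells. Of 17 tested members, 8 were called higher and 0 lower (47.1% against 2.98% of all genes), and 7 of the 17 passed the filter on dim probes through the K57N arrays alone. Of the 9 members above background on all 9 arrays, 3 were called, and their median difference was 0.05. SPANXN3 gave 1.42, 1.94 and 1.92 in K57N and −3.28, −1.75 and −2.59 in F53S cells, a difference of 4.30 (adjusted p = 5.47e-05, limma). MAGEB2 was higher by 2.92. XAGE1A was also called higher but exceeded background on 1 of 3 F53S arrays. SPANX and XAGE genes have near-identical copies on the X chromosome, so their probes may measure several copies together. PRAME and MAGED1 differed little. Of the 35 genes listed, the other 18 were too dim to test or had no named probe, so the counts cover the tested members only.

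The 12 largest rises among genes measured on all 9 arrays also held genes outside these lists. PRSS2 and PRSS3, which encode trypsinogens, were higher by 3.62 and 3.36, and their sequences are close enough for shared hybridization. TRIML2, PAEP and C11orf96 were higher by 3.34, 3.20 and 3.20. PAEP encodes glycodelin, a secreted lipocalin. CEMIP, a hyaluronan-depolymerizing protein, gave −0.27, −1.84 and −1.87 in K57N cells and did not exceed background on any F53S or WT array, so that it was at least 11-fold higher (adjusted p = 4.84e-06). SPINK1, a trypsin inhibitor, was at least 10.2-fold and ANGPT2, an angiopoietin, at least 7-fold higher. With normexp the fitted differences of CEMIP, SPINK1 and ANGPT2 were 2.06, 1.71 and 1.53. For LINC00520, a long non-coding RNA, the bound was 7.58-fold and the difference with normexp 1.56, but the call was kept only without WT replicate 2 or WT replicate 3 among the 9 omissions of an array. Of the 362 higher genes, 50 were below background on all F53S arrays.

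Genes lower in K57N cells differed by smaller amounts. SOX11, a factor of neural progenitors, gave −0.96, −1.60 and −1.60 in K57N, 0.59, 0.59 and 0.63 in F53S and 1.02, 1.13 and 1.2 in WT cells, a K57N minus F53S difference of −1.99 (standard error 0.16, adjusted p = 0.00049, limma). The 3 lines did not overlap. SOX3 was lower by −1.41, and SOX12 did not exceed background in K57N cells and was at least 2.90-fold lower there, but its difference was −0.71 with normexp, and the call was lost. Of 27 tested SOX and neural progenitor factors, 3 were called lower and 1 higher (14.8% against 2.98% of all genes), and with the filter for all 9 arrays 2 of 26 were lower and 1 higher. The higher one was SOX8, which gave 2.27, 1.82 and 1.85 in K57N and 0.68, 0.21 and 0.22 in F53S cells, a difference of 1.61 (adjusted p = 4.79e-05). SOX2, with −0.93, did not reach 2-fold, and ID3 had an interval from −0.19 to 0.19.

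NPNT, which encodes nephronectin, a ligand of integrin alpha8 in the developing kidney, gave −1.61, −1.11 and −1.18 in K57N and −0.11, 0.58 and 0.83 in F53S cells, a difference of −1.73 (standard error 0.12, adjusted p = 0.00021, limma). SIX2, a factor of nephron progenitors, was lower by −1.08, a call lost without F53S replicate 3, without the slide term (adjusted p = 0.212) and with normexp, where the difference was −0.66. The other 24 of 26 tested kidney development genes were not called, so that 7.69% of the list was called against 2.98% of all genes. DEPP1, a FOXO target, gave 2.87, 1.77 and 1.86 in K57N, 5.26, 3.83 and 3.75 in F53S and 5.30, 4.03 and 4.06 in WT cells. DEPP1 was slightly lower in F53S than in WT cells for each replicate number, and K57N cells were lower than F53S cells by −2.11 (adjusted p = 5.23e-05). CHRDL1 gave −2.55, −2.41 and −2.34 in K57N and −0.84, −0.74 and −0.80 in F53S cells. NOXA1, an activator subunit of NADPH oxidase, gave −0.72, −0.65 and −0.70 in K57N and 0.64, 0.55 and 0.44 in F53S cells, a difference of −1.24 (adjusted p = 0.000595). CHRDL1 and NOXA1 were the only lower genes by the methods' t-test after adjustment.

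Other large falls were those of CAPN6, MAP2, SGPP2, CGNL1 and HS3ST1, between −1.72 and −1.52, MAP2 without F53S replicate 3. With normexp CAPN6, SGPP2 and HS3ST1 had differences of −0.84, −0.96 and −0.92. MAP2 is a microtubule-associated protein of neurons and CGNL1 a protein of epithelial junctions. The pseudogene transcript WFDC21P was lower by −1.91 with both of its probes. The largest fall among genes measured on all 9 arrays, that of the non-coding C6orf147, rested on scattered values of 0.59, −4.15 and −2.0 in K57N cells and on 1 of 3 probes, and its call was lost in 8 of the 9 omissions of an array and with the replicate block (adjusted p = 0.0642). The calls of SLC29A4, at −1.54, and SMTNL2, lower by at least 6.17-fold with a normexp difference of −1.54, were lost in 7 and 5 of the 9 omissions, and F53S replicate 3 was the highest array of both genes. With normexp the call of SMTNL2 was lost (adjusted p = 0.0981, limma). Without the slide term the calls of C6orf147, SLC29A4 and SMTNL2 were all lost. Among bounds, ANKRD65, LRRTM4, OLFML3 and SLIT2-IT1 were lower by at least 2.44-fold, 2.53-fold, 2.16-fold and 2.56-fold, and all 4 calls were lost without the slide term and with normexp, where the differences were −0.54, −0.68, −0.48 and −0.70.

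**Figure D2:**
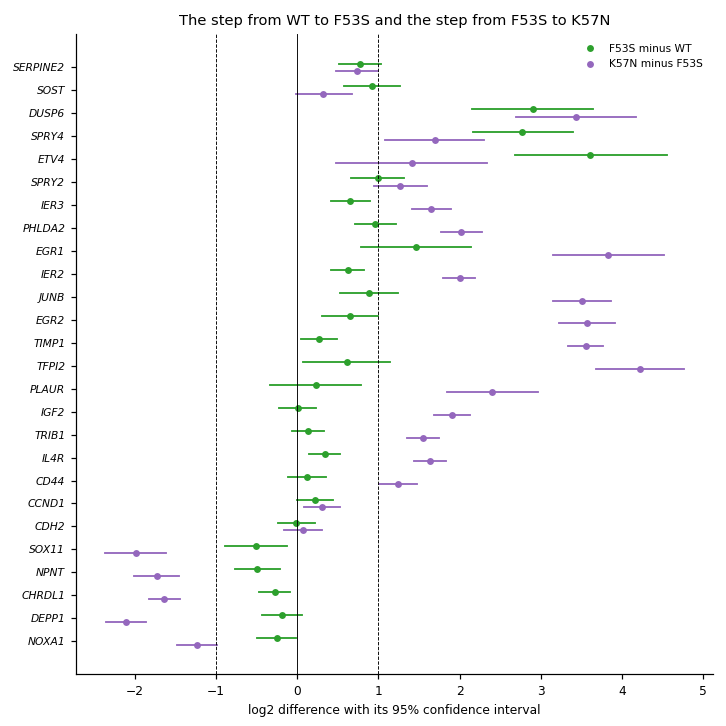
For 26 genes, the log2 difference F53S minus WT (green) and K57N minus F53S (purple) with 95% confidence intervals, with dashed lines at 2-fold. Both steps share the F53S arrays. Both steps of DUSP6 and SPRY4 lie above 2-fold in their intervals, those of TIMP1 and IGF2 do so for K57N minus F53S and not for F53S minus WT, those of CDH2 lie within 2-fold, and SOX11, NPNT and DEPP1 are lower in K57N cells.

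Most of the expressed transcriptome differed little between the mutants. Of the 17075 genes that exceeded background on all 9 arrays, 15266 (89.4%) had an interval within 2-fold in either direction, 342 were called, and 1467 were neither called nor within the limits. The median difference of all genes tested was −0.07. All 78 cytosolic ribosomal protein genes, all 31 proteasome subunits, all 45 respiratory chain genes and all 32 proliferation genes differed little. Their differences ranged from −0.34 to 0.06, from −0.12 to 0.66, from −0.57 to 0.19 and from −0.43 to 0.70. RPL7, for example, gave 7.51, 7.45 and 7.55 in K57N and 7.51, 7.48 and 7.51 in F53S cells. MCM6, a subunit of the replicative helicase, had an interval from −0.22 to 0.18.

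Other lists lay on either side of the 89.4% of all genes that differed little. Of 29 cyclins and CDK inhibitors measured on all arrays, 28 differed little. CCNA1, the cyclin of germ cells, was the 1 called gene of this list and was higher by 2.76 (adjusted p = 5.21e-05, limma), or 1.71 with normexp. CDKN1B, which encodes the inhibitor p27, had an interval from −0.59 to −0.22. In the glycolysis list 0 of 28 genes were called by limma and 23 (82.1%) differed little, while HK2 and the lactate exporter SLC16A3 had differences of 0.95 and 0.87, just under 2-fold. In sterol synthesis 23 of 25 differed little and TM7SF2 was called lower, by −1.21, a call lost in 3 of the 9 omissions of an array. In cell death and survival 28 of 30 differed little, MCL1 among them, and BMF, a BH3-only protein, was lower by −1.2 from 1 of its 2 probes. The call of BMF was lost without K57N replicate 1 and with the mean of its probes, which gave −0.58. Of 47 WNT and NOTCH genes measured on all arrays, 39 (83%) differed little. DKK1, a WNT antagonist, was higher by 1.93, WNT7B by at least 3.54-fold, and WNT5A was lower by −1.16. The call of WNT7B was lost in 3 of the 9 omissions, and its difference was 0.74 with normexp. Of 22 interferon-stimulated genes, 18 (81.8%) differed little and IFIT1 was called lower, by −1.13. Its call was lost in 7 of the 9 omissions of an array and with the replicate number as a block (adjusted p = 0.0552, limma). The called share was 3.33% for cyclins and CDK inhibitors, 4% for sterol synthesis and 3.23% for cell death and survival. It was 4.55% for interferon-stimulated genes and 6.12% for WNT and NOTCH genes, against 2.98% of all genes. Single calls near that share describe those genes only.

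The AKT pathway list held 4 genes called higher and 2 lower among 31 tested (19.4% against 2.98% of all genes), and 3 higher and 2 lower of 29 with the filter for all 9 arrays. Besides PHLDA1 and PHLDA2, the pseudokinase TRIB1 was higher, with 4.60, 4.26 and 4.30 in K57N and 2.99, 2.77 and 2.75 in F53S cells, a difference of 1.55 (adjusted p = 7.96e-05, limma). TRIB3, an inhibitor of AKT and a target of ATF4, gave 6.04, 3.91 and 3.97 in K57N and 4.11, 3.23 and 3.20 in F53S cells, and its call was lost in 8 of the 9 omissions and with the replicate block (adjusted p = 0.0708). MTOR and PHLPP2 differed little, with intervals from −0.16 to 0.20 and from −0.06 to 0.32. The lipid phosphatase INPP5D and the regulatory subunit PIK3R3 were lower by −1.21 and −1.06, and both calls were lost without F53S replicate 1 or K57N replicate 1, that of INPP5D also without F53S replicate 2 or F53S replicate 3. In the ATF4 list, 4 of 26 genes were called higher (15.4% against 2.98% of all genes), namely GDF15, PPP1R15A, TRIB3 and CEBPB, and all 4 calls were lost without the slide term. The call of PPP1R15A was also lost without F53S replicate 1 or K57N replicate 1. That of CEBPB was lost in 6 of the 9 omissions and with the replicate block (adjusted p = 0.0513). The blood cell list had 1 call among 6 tested genes (16.7% against 2.98% of all genes), CD68, a lysosomal protein, at 1.62. The summed signal of this list lay between 1.11 and 2.10 in F53S and between 1.59 and 2.30 in K57N cells, and LYZ and HBB were not tested. The part of these values in the call of CD68 was not tested.

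Changes shared by both mutants were looked for with the mean of both against WT, a contrast that does not use their difference. It gave 199 genes higher (1.04%) and 44 lower (0.229%). Only 2 of these genes, SERPINE2 and SOST, were higher than WT and differed little between the mutants, and 0 were lower, with the same counts at an unadjusted p in limma. SERPINE2, which encodes protease nexin-1, gave 0.42, 0.76 and 0.87 in K57N, −0.08, −0.06 and 0.00 in F53S and −0.99, −0.85 and −0.61 in WT cells. Its K57N minus F53S interval, from 0.48 to 0.99, excluded 0 and lay just within the limit. SOST, a secreted WNT antagonist, gave −1.02, −1.38 and −1.26 in K57N, −0.92, −1.69 and −2.01 in F53S and −2.05, −2.70 and −2.65 in WT cells, and the mutants overlapped. SOST met the rule in all 9 omissions of an array, SERPINE2 in 3 of them.

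The promoters of the higher genes were read for motifs of the factors named above, since AP-1 subunits were among the higher genes. RefSeq (GRCh38.p14) gave 1 transcription start and 250 bases before it for 180 of the 303 higher genes with a RefSeq symbol, 88 of the 166 lower ones and 8068 of 14316 tested. The AP-1 motif TGANTCA, which reads the same on both strands, occurred in 33 of the 180 windows (18.3%). It occurred in 2 of the 88 windows of lower genes (2.27%), in 3.51% of the windows of genes that differed little, in 4.15% of those of tested genes and in 6.86% of all 22114 windows. The ETS core AGGAAG, on either strand, occurred in 38.3% of the windows of higher genes, 28.4% of those of lower genes, 27.3% of those of tested genes and 28.6% of all windows. The CArG box, bound by serum response factor, occurred in 2 of the 180 windows (1.11%), EGR1 among them, in 0.83% of those of tested genes and in 1.12% of all. TATAAA on either strand occurred in 22.8% of the windows of higher genes, 5.68% of those of lower genes, 6.26% of those of tested genes and 11.8% of all. The CRE motif TGACGTCA, which also reads the same on both strands, occurred in 4.44% of the windows of higher genes, 1.14% of those of lower genes, 3.32% of those of genes that differed little, 3.16% of those of tested genes and 1.82% of all. A CArG box can contain TATAAA, so these matches may overlap, and a match is a description of the sequence only.

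The windows of 5 genes with large rises and an AP-1 motif are shown with the motif in capitals, and that of EGR1 with its CArG boxes in capitals. The motif starts 96 bases before the start of IL11, 67 before that of MMP10, 87 before that of TFPI2, 186 before that of PLAUR and 102 before that of SERPINB2. The CArG boxes start 105 and 83 bases before the start of EGR1. No window was listed for MMP1.
IL11 (chr19:55370464-55370713, minus strand): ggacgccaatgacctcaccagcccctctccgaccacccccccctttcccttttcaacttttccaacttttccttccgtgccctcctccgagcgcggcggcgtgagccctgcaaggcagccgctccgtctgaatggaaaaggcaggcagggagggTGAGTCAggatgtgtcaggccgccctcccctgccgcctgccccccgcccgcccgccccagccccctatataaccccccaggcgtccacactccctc
MMP10 (chr11:102780629-102780878, minus strand): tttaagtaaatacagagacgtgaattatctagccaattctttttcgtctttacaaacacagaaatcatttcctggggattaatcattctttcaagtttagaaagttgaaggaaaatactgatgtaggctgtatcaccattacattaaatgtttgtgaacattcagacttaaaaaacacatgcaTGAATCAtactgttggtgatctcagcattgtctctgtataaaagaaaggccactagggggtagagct
TFPI2 (chr7:93890754-93891003, minus strand): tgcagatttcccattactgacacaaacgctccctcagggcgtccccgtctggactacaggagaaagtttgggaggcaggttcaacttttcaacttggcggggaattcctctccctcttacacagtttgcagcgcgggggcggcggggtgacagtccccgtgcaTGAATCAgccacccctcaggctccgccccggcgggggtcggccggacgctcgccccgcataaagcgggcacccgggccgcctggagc
PLAUR (chr19:43670170-43670419, minus strand): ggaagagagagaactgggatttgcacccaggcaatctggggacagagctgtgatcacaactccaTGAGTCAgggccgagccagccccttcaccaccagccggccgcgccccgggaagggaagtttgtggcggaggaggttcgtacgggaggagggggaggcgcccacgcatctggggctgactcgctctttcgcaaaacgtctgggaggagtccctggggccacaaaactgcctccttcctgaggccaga
SERPINB2 (chr18:63887455-63887704, plus strand): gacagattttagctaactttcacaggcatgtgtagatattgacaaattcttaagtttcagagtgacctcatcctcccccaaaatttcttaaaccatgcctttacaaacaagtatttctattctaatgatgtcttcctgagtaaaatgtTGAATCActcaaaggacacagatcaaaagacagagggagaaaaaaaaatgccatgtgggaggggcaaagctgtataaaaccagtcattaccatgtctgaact
EGR1 (chr5:138465229-138465478, plus strand): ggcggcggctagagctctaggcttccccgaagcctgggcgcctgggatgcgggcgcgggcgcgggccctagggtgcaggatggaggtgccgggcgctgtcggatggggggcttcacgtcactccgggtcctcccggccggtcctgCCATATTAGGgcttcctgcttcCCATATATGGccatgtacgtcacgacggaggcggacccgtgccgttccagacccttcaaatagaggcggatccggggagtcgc

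IL11, MMP10 and TFPI2 carried the motif at 67 to 96 bases before the start and were higher in K57N cells by 4.95, 4.64 and 4.22. With normexp the difference of MMP10 was 2.91. DUSP6, JUNB and TIMP1, higher by 3.43, 3.5 and 3.55, were not among the 33 higher genes with an AP-1 motif in their window. Only 180 of the 303 higher genes had a window, and whether these genes had one is not given here. The motif was not limited to the strongest rises, since it also occurred in 3.51% of the windows of genes that differed little.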

How the data were processed

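RNA of HEK293 lines expressing WT, F53S or K57N MEK1 was hybridized to Agilent 1-colour arrays, with 3 arrays per line. The authors extracted spot intensity values with Agilent Feature Extraction 10.10.1.1, which subtracts background within each array, and probes carry hg19 positions per the file headers. The deposited log2 values, an alternative here, equal the log2 processed signal minus 1 constant per array within 0.02. Their normalization is not given in the sources used here. From the deposited intensity values, log2 of the processed signal minus the 75th percentile of each array was computed, without control spots and spots marked as outliers. The 25409 probes tested were those that stood well above background in every replicate of 1 or more lines, and the brightest tested probe stood for each gene. Probes were named by RefSeq accession where possible.

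Line and slide were fitted to all 9 arrays with limma 3.58.1 in R 4.3.3, with Benjamini-Hochberg adjustment over all probes tested. Other tools were the data.table package (1.17.8), Python 3.11.15, pandas 2.3.3, numpy 2.4.6 and matplotlib 3.10.9. The number of arrays limits the precision. Same-numbered F53S and K57N arrays deviated together from their line means (r = 0.738, 0.613 and 0.427 over genes, which are not independent replicates). Replicate 1 is also slide 1, however, and within slide 2 alone r was 0.0473. The main fit used slide and did not pair arrays by replicate number within slide 2. The replicate number was a block in an alternative only. The scripts were tested on simulated data. Alternatives were the block, arrays used, background correction, scaling, filter, probe summary, deposited log2 values, the methods' t-test, slide 2 alone and each array left out.

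The genes and lists were chosen with earlier results of these data known. Named genes were MAP2K1, CHRDL1, NOXA1, the 12 largest rises and falls, the 6 largest bounds in each direction, genes changed alike in both mutants, and from each list the largest called, those with the narrowest interval among genes that differed little, and those called against the rest. Other list members were added to the text after their values were seen. Most list members are given in counts only, and some results are not reported here.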

Additional observations from a re-analysis of the deposited data

How the results depend on the processing

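Against 362 higher and 211 lower genes, 184 and 47 were called without the slide term (79.7% higher), 189 and 51 with normexp background correction (78.8% higher), 268 and 136 without the filter on dim probes, 194 and 155 among genes above background on all 9 arrays, 342 and 131 on slide 2 alone, and 24 and 2 by the methods' t-test after adjustment (92.3% higher). With the replicate number as a block in place of slide, 348 and 200 were called. Leaving out 1 array gave 314 to 359 higher and 139 to 262 lower genes, lowest for the lower genes without F53S replicate 1 (139) and K57N replicate 1 (140). An unadjusted limma p, chosen after seeing the data, gave 415 and 268. The 15266 genes that differed little became 9947 without the slide term, 7941 by the t-test, and 7673 with limits of 0.5 on the log2 scale, also chosen after seeing the data. The 2 genes changed alike in both mutants became 0 without the slide term, with normexp correction or with limits of 0.5, 1 with median scaling, without the filter, in the deposited table or on slide 2 alone, 4 with the mean of probes, and 1 to 3 with 1 array left out. MAP2K1 had a difference of 0.37 to 0.43 in all alternatives (0.40 in the next ones, 0.41 with median scaling), but its adjusted p was above 0.05 without the slide term (0.308), with the 6 mutant arrays only (0.0696), with median scaling (0.106), without the filter (0.146) and by the t-test (0.111). Over all alternatives with an adjusted p it ranged from 0.00967 to 0.308, and with 1 array left out its difference was 0.37 to 0.41. Of 83 called named genes, 51 could be tested in all alternatives, and 4 of these kept their call in each. A further group above background on fewer than 9 arrays brought to 8 those that kept it wherever they were tested. Of the 83 called and 55 other named genes, 0 reversed. The cause of these changes was not tested.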
